A study of Mus musculus with 15 samples.

Results

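The 6 V genes TCRBV17-01 (Trbv17), TCRBV20-01 (Trbv20), TCRBV23-01 (Trbv23), TCRBV24-01 (Trbv24), TCRBV26-01 (Trbv26) and TCRBV30-01 (Trbv30) lie toward the D segments within the V gene cluster of the mouse T cell receptor (TCR) β locus, and every rearrangement that the deposited files assign to one of them was taken. They are 6 of the 35 V genes named in these files and gave 3162 of 29976 rearrangements with a V gene, 1650 of them listed as productive. The immunoSEQ assay read the rearrangements from DNA of T cells sorted as CD8+ PD-1+ CD44+, a gate for antigen-experienced cells. All mice were untreated (control) female C57BL/6 animals, purchased at 6 weeks of age, with a B16F10GP tumor on each flank. B16F10GP is the B16F10 mouse melanoma line made to express a viral (LCMV) glycoprotein. The 3 groups of 5 samples are the tumor-draining lymph node (TdLN) of the tumor 1 side, tumor 1 on the right flank, and tumor 2 on the left flank, implanted 3 days later, each from mice 1 to 5. Mice are numbered as in the titles. The cell type label of the samples names the tumor line, although the methods and titles give sorted T cells as the source of the DNA, and all files hold TCR β rearrangements.

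A TCR β gene is assembled in the thymus when a D segment is joined to a J segment and then a V segment to this DJ unit, with bases trimmed and non-templated (N) bases added at the joints. The recombinase cuts next to a recombination signal sequence, a heptamer and a nonamer held apart by a spacer. Joints that are out of frame, or that carry a stop codon, stay in the DNA of T cells whose other allele was joined productively, so out-of-frame shares describe how often a V gene was joined, and productive shares describe what was left after selection of the protein.

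On GRCm38 chromosome 6 the 6 genes span positions 41163062 to 41281990 on the plus strand, by the GENCODE M21 annotation. Trbv17 (41163062 to 41163556) is the farthest from the D segment Trbd1, at 369.6 kb. Trbv20 (41188273 to 41188977) follows at 344.2 kb. Trbv23 (41216073 to 41216526), Trbv24 (41218091 to 41218557) and Trbv26 (41227505 to 41227993) lie at 316.7, 314.6 and 305.2 kb. Trbv30 (41281376 to 41281990) is the nearest, at 251.2 kb. Of the 6 genes, 5 are annotated as V genes and Trbv24 as a V pseudogene. All of them have a second exon that ends at the recombination signal. The last 20 bases of that exon and the 39 bases of the signal are given for each gene, since this is the stretch that is cut and joined; capitals mark the heptamer and the nonamer, and the strand is plus.
Trbv17, chr6:41163537-41163595: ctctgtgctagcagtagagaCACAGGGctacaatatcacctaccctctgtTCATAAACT
Trbv20, chr6:41188958-41189016: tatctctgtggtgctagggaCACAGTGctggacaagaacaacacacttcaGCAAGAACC
Trbv23, chr6:41216507-41216565: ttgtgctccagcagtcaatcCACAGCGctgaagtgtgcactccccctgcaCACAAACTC
Trbv24, chr6:41218538-41218596: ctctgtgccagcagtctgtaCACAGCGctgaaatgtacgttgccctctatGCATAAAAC
Trbv26, chr6:41227974-41228032: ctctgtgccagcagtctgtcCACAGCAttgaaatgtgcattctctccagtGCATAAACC
Trbv30, chr6:41281971-41282029: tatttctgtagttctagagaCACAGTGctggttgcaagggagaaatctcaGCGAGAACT

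The consensus heptamer CACAGTG stood directly after the annotated end of Trbv20 and Trbv30, and of 8 of the 35 V genes in all, searched on the strand of each gene. The other members matched it at 5 (Trbv26) or 6 (Trbv17, Trbv23 and Trbv24) of 7 bases. Against the consensus nonamer ACAAAAACC, Trbv20 and Trbv26 matched at 7 of 9 bases, Trbv17 and Trbv24 at 6, Trbv30 at 5 and Trbv23 at 4. These matches are a description of the letters at these positions.

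Depth differed between the tissues and set the precision. With rearrangements without a V gene left out, a TdLN held 1290 to 5720 unique productive TCRs and 3253 to 9099 productive templates, tumor 1 held 182 to 366 and 3600 to 6137, and tumor 2 held 50 to 553 and 238 to 3975. A template is the provider's estimate of one genome that carried the rearrangement, and a unique TCR is a distinct productive nucleotide rearrangement. Tumor 2 of mouse 4 was the shallowest library (50 unique TCRs), so a share of 0 there allowed up to 6% of unique TCRs, the share that 3 counts would give. Library names in the labels are capitalized in one way for mice 1 to 3 and in another for mice 4 and 5, so the mice may form separate sets, and values for each set stand beside the main results. The sources say no more about these sets. They differed in depth: the TdLN of mice 1 to 3 held 1290 to 1630 unique productive TCRs, and those of mice 4 and 5 held 5720 and 5716. Shares of single samples carry 95% Wilson intervals, which cover counting error only.

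Some libraries of different mice shared rearrangements. TdLN of different mice had at most 0.891% of their unique productive TCRs in common. Tumor 2 of mice 1, 2 and 3 shared 14.1% to 43.2% with each other. Tumor 1 of mouse 1 had 16.7% of its unique TCRs and 92.0% of its templates in tumor 2 of mouse 2. Tumor 1 of mouse 2 had 24.7% and 84.9% in tumor 2 of mouse 1, and tumor 1 of mouse 3 had 3.85% and 62.7% there. Tumor 2 of mouse 1 had 18.1% of its unique TCRs in the TdLN of mouse 2. Tumor 1 of mouse 4 shared 9.84% of its unique TCRs and 80.9% of its templates with tumor 1 of mouse 5, and tumor 2 of mouse 4 had 36% of its unique TCRs in tumor 1 of mouse 5. Tumor 2 of mouse 5 had 29 of its 553 unique TCRs (5.24%) in the TdLN of mouse 4, close to the 30 (5.42%) it had in its own. Among the 6 genes, Trbv17 was the most affected by templates: its rearrangements listed in another mouse too made up 93.8% of its productive templates in tumor 1 and 90.5% in tumor 2, against 8.14% in the TdLN. Over all V genes the same values were 70.4%, 79.3% and 9.13%. Trbv20 had 47.2% in tumor 1, 69.2% in tumor 2 and 12.6% in the TdLN, and Trbv24 had 3.39%, 77.6% and 0.727%. The values for Trbv26 were 23% in tumor 1, 6.98% in tumor 2 and 0.515% in the TdLN, and none of the productive rearrangements of Trbv23 and Trbv30 were found in a second mouse. Several template results are also given without the shared rearrangements, which changes the total as well as the gene, or with each shared rearrangement kept only in the mouse with most templates of it.

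The 6 genes fell into 3 levels in the TdLN. By share of unique productive TCRs, Trbv17 made up 2.44% ± 0.523, Trbv20 2.34% ± 0.355 and Trbv26 2.27% ± 0.282 (SD, n = 5), which are ranks 17, 18 and 19 of the 35 V genes. These neighbours in the order differed by less than their spread between mice. Trbv24 followed at 1.11% ± 0.0660, rank 20. Trbv30 at 0.328% ± 0.101 and Trbv23 at 0.253% ± 0.0281 were lowest, at ranks 21 and 22, and again differed by less than 1 SD of Trbv30. Together the 6 genes held 8.74% ± 0.754 of the unique TCRs of a TdLN. Trbv23 was within 0.227% and 0.297% in all 5 TdLN, which is 3 to 15 rearrangements each.

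**Figure D1:**
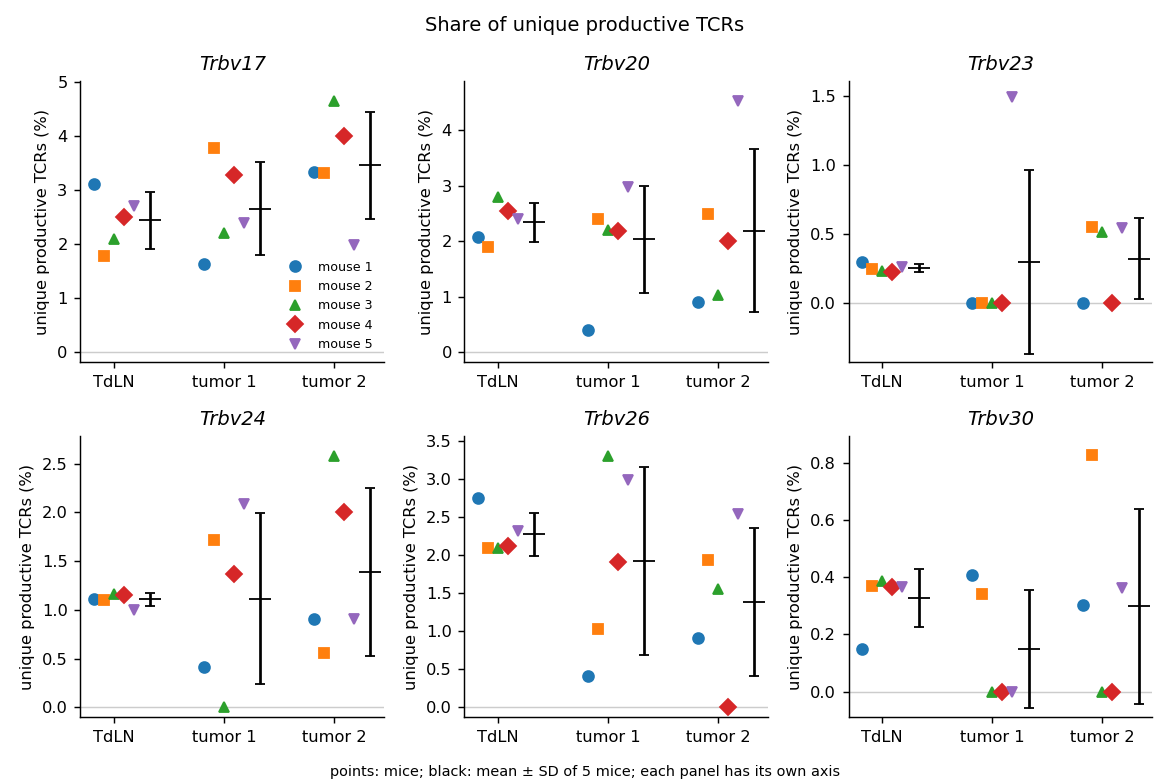
Share of unique productive TCRs (%, y axis, one scale per panel) of each V gene by tissue (x axis), with a point per mouse and the mean ± SD of 5 mice in black. The TdLN of 5 mice sit close together, as for Trbv24 between 0.997% and 1.16%, while the tumors spread more widely, as for Trbv24 in tumor 1 between 0% and 2.08%.

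Out-of-frame joints gave another order. On average Trbv24 was the most frequent of the 6 there, at 3.35%, 4.18%, 4.45%, 4.89% and 4.46% of the out-of-frame rearrangements of the TdLN of mice 1 to 5. In mouse 1 alone, Trbv26 (4.32%) and Trbv17 (3.91%) were above it. Its share of the unique productive TCRs of the same samples was 1.11%, 1.10%, 1.16%, 1.15% and 0.997%. The groups did not overlap, and the productive share was lower in 5 of 5 mice. Trbv24 took a mean of 1.11% ± 0.0660 of productive against 4.26% ± 0.573 of out-of-frame rearrangements (SD, n = 5), a difference of -3.16 percentage points (two-sided exact permutation test, p = 0.00794; Benjamini-Hochberg adjusted p = 0.0159 over 20 V genes whose mean share reached 1%). Mice 1 to 3 had a difference of -2.87 ± 0.557 (SD, n = 3), and mice 4 and 5 one of -3.60 ± 0.196 (SD, n = 2). Over all V genes, 11 of 20 tested (55%) were called in this comparison, in either direction, Trbv24 alone among the 4 members tested. The 2 shares of a TdLN come from the same sample, but this test treated them as independent values. A paired sign-flip test over 5 mice cannot go below 0.0625, so it could call no V gene. All 171 Trbv24 rearrangements of the TdLN listed as productive carried an in-frame stop codon in the V part of the read. A gene with such a stop encodes no full receptor, so a low productive share was given in advance by its sequence. The Trbv24 call therefore cannot tell how selection acted on a Trbv24 protein.

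Trbv17, Trbv20 and Trbv26 were near each other in this comparison too, with out-of-frame shares of 2.93% ± 0.643, 3.04% ± 0.528 and 3.13% ± 0.877 (SD, n = 5). Their productive minus out-of-frame shares were -0.49, -0.70 and -0.86 percentage points, none of which passed the test (adjusted p = 0.298, 0.0794 and 0.0855, exact permutation test). The productive share was lower in 5 of 5 mice for Trbv26 and in 4 of 5 for Trbv17 and Trbv20. By set, mice 1 to 3 and then mice 4 and 5, the differences were -0.93 ± 0.484 and 0.17 ± 0.269 for Trbv17, -0.74 ± 1.11 and -0.65 ± 0.129 for Trbv20, and -1.20 ± 0.738 and -0.35 ± 0.481 for Trbv26 (SD). limma on log2 shares called Trbv20 (adjusted p = 0.0283) and Trbv26 (adjusted p = 0.0341). Trbv23 and Trbv30, which were below the 1% filter and were not tested, had productive shares of 0.253% and 0.328% and out-of-frame shares of 0.521% ± 0.160 and 0.323% ± 0.137. Trbv23 was lower in the productive share in 5 of 5 mice.

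**Figure D2:**
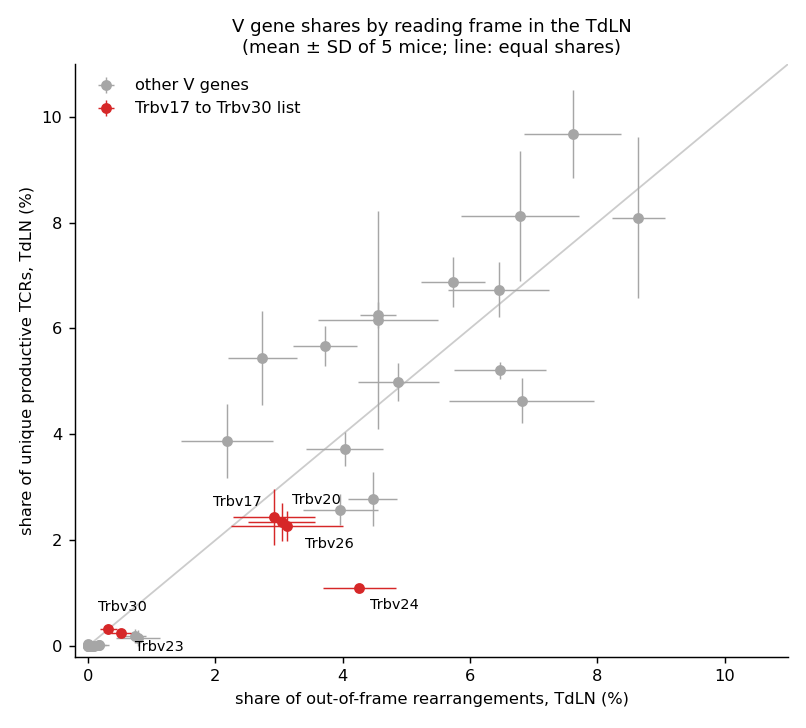
Share of unique productive TCRs (%, y axis) against share of out-of-frame rearrangements (%, x axis) in the TdLN for the V genes named in the files, as mean ± SD of 5 mice, with the 6 genes in red and the line of equal shares in grey. Trbv24 lies at 4.26% out-of-frame and 1.11% productive, well under the line, and Trbv17, Trbv20 and Trbv26 lie together slightly under it.

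The sequence of Trbv24 holds a stop codon that the files do not count. In GRCm38 its second exon has an in-frame TAG at chr6:41218535-41218537, 2 codons before the cysteine codon at which the CDR3 (the third complementarity-determining region, encoded by the joint) starts. No in-frame stop was found in the second exon of the other 5 genes. The stop and the bases around it in the reference, and the Trbv24 rearrangement listed as productive with most templates in tumor 1 (Trbj1-4, 31 templates in mouse 5), are given with the stop codon in capitals.
Trbv24 reference: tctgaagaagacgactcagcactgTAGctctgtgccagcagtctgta
Trbv24 rearrangement: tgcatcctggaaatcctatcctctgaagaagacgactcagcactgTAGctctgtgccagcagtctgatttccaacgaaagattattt

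All 205 Trbv24 rearrangements listed as productive carried this TAG at 2 codons before the CDR3. Among the other members a stop before the CDR3 in the 87-base read was found in 1 of 480 productive rearrangements of Trbv17, in 3 of 50 of Trbv23, and in 0 of 447, 0 of 405 and 0 of 63 of Trbv20, Trbv26 and Trbv30, where 0 allows up to 3 counts of these totals. The listed status therefore describes the CDR3 alone. All values of productive Trbv24 rearrangements, TCRs and templates given here follow this listed status. They do not count cells with a Trbv24 receptor. Of all Trbv24 rearrangements 205 were listed as productive, 453 as out of frame and 33 as having a stop codon. The V parts of the reads matched the reference: bases up to the CDR3 start were identical to GRCm38 in 91.0% of the 691 Trbv24 reads, and in 87% (Trbv23) to 96.8% (Trbv26) of the reads of the other members.

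By gene, Trbv24 had the lowest share of rearrangements listed as productive in the TdLN among the 6. It was 36.6%, 32.7%, 25.9%, 31.4% and 25.7% in mice 1 to 5, a mean of 30.5% ± 4.68 (SD, n = 5). Trbv17 had 59.5% ± 7.48, Trbv20 57.7% ± 5.27 and Trbv26 56.5% ± 7.72, and these 3 differed by less than their SD. The values of Trbv24 lay below all of theirs, of which the lowest was 44.3% (Trbv26, mouse 3). Trbv23 had 46.4% ± 8.98 from 9 to 27 rearrangements a mouse and Trbv30 63.5% ± 17.1 from 6 to 31. In 16 other V genes with at least 100 rearrangements in the pooled TdLN, this share was between 48.0% and 78.0%. Below that minimum, other genes lay as low as Trbv24. Named after their values were seen, these included Trbv21 with 19 of 79 (24.1%, 95% Wilson interval 15.97% to 34.5%) and Trbv22 with 25 of 86 (29.1%, 20.5% to 39.4%). Genes with very few rearrangements went both ways, as Trbv10 with 2 of 13, Trbv27 with 1 of 11 and Trbv25 with 3 of 3.

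**Figure D3:**
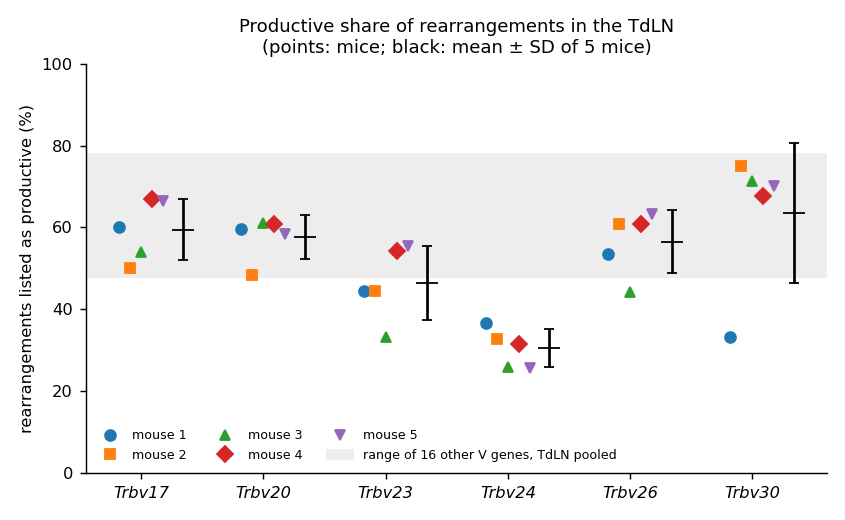
Share of rearrangements listed as productive (%, y axis) for each of the 6 V genes in the TdLN (x axis), with a point per mouse, the mean ± SD of 5 mice in black, and the range of 16 other V genes with at least 100 rearrangements (48.0% to 78.0%, TdLN pooled) in grey. All 5 mice of Trbv24 lie between 25.7% and 36.6%, under the grey band, which leaves out rarer genes, among them Trbv21 (24.1%) and Trbv22 (29.1%).

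In tumor 1 the productive percentage could be tested for Trbv17 and Trbv26, which had at least 5 rearrangements in every sample. It was 55.1% ± 16.1 in tumor 1 against 59.5% ± 7.48 in the TdLN for Trbv17 (adjusted p = 0.657) and 49.3% ± 23.2 against 56.5% ± 7.72 for Trbv26 (adjusted p = 0.658; SD, n = 5, exact permutation tests). Neither passed the test, and the spread in tumor 1 was wide, from 33.3% to 66.7% for Trbv17 and from 12.5% to 70% for Trbv26. In mice 1 to 3 the Trbv26 difference was -16.2 ± 25.7 percentage points, and in mice 4 and 5 it was 6.35 ± 4.02 (SD); for Trbv17 the values were -7.23 ± 13.7 and -0.0064 ± 0.211. Over all V genes 3 of 17 (17.6%) passed. Trbv20 had 43.4% ± 17.8 and Trbv24 25.2% ± 18.4 in tumor 1 (SD, n = 5) and were not tested.

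Junctions differed between members. The annotated V end lies 14 bases after the start of the cysteine codon in Trbv20 and Trbv30, and 17 bases after it in the other 4. In the TdLN the CDR3 of unique productive TCRs averaged 39.1 ± 0.374 bases for Trbv20 and 40.2 ± 1.94 for Trbv30, against 41.6 ± 0.823 (Trbv26) to 44.0 ± 1.51 (Trbv23) for the others and 42.1 ± 0.229 over the other V genes (SD of mouse means, n = 5). Fewer bases had been trimmed from these V ends, at 1.90 ± 0.440 for Trbv20 and 1.86 ± 0.656 for Trbv30, against 2.82 ± 0.564 (Trbv23) to 3.43 ± 0.304 (Trbv17). The V end of Trbv20 was untrimmed in 43.6% ± 6.46 of its productive rearrangements, that of Trbv30 in 21.8% ± 17.0, that of Trbv17 in 14.8% ± 4.56 and that of the other V genes in 22.9% ± 2.82. N insertions averaged 2.96 ± 0.932 (Trbv30) to 3.94 ± 0.728 (Trbv24) bases per rearrangement, and the SDs of the members overlapped. Joints without an N base made up 18.8% ± 5.59 for Trbv26 and 14.0% ± 8.23 for Trbv20, 8.70% ± 8.29 for Trbv17, 5.01% ± 2.95 for Trbv24, 4.76% ± 6.73 for Trbv30 and 3.08% ± 6.88 for Trbv23, against 9.44% ± 3.23 for the other V genes. These means mix the sets of mice. The other V genes had 6.64% to 7.63% in mice 1 to 3, and 12.5% and 13.4% in mice 4 and 5. Trbv17 had 0% to 4.76%, then 18.9% and 16.1%. Trbv20 had 6.45% to 11.1%, then 24.8% and 20.4%. Trbv26 was not higher in mice 4 and 5, at 14.7% to 27.0%, then 15.7% and 14.4%. These features were not tested.

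The J segments also varied. Trbj2 segments were used by 75.0% ± 5.08 of the productive Trbv17 rearrangements of the TdLN, 59.3% ± 5.29 of those of Trbv20 and 63.0% ± 4.23 of those of Trbv26 (SD of mouse means, n = 5). Trbv24 had 64.0% ± 6.03, and the rare Trbv23 and Trbv30 had 72.2% ± 18.1 and 81.2% ± 15.5. The ranges over mice were 69.0% to 82.8% for Trbv17 and 54.5% to 67.7% for Trbv20, which do not overlap. Out-of-frame rearrangements were similarly placed, at 73.0% ± 3.50 for Trbv17 and 58.5% ± 6.90 for Trbv20, and the other V genes had 67.5% ± 1.33 in productive and 71.1% ± 1.69 in out-of-frame rearrangements.

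Whether the 6 genes were used differently by the T cells of the tumors was asked first by unique TCRs. In tumor 1 their shares were 2.65% ± 0.860 (Trbv17), 2.03% ± 0.963 (Trbv20), 1.11% ± 0.880 (Trbv24) and 1.92% ± 1.23 (Trbv26), and all overlapped the TdLN. The differences from the TdLN were 0.21, -0.31, 0.01 and -0.35 percentage points, with adjusted p between 0.823 and 0.992 (SD, n = 5, exact permutation tests). By set, mice 1 to 3 and then mice 4 and 5, Trbv20 had -0.59 ± 1.083 and 0.12 ± 0.657, Trbv24 -0.42 ± 0.919 and 0.65 ± 0.618, and Trbv26 -0.73 ± 1.79 and 0.23 ± 0.615 (SD), so the sign differed between the sets for these 3. None of the 20 V genes tested was called (0%), 7 had an unadjusted p under 0.05, none of them a member, and limma called 0. In tumor 2, Trbv17 had 3.32%, 3.31%, 4.64%, 4% and 1.99% in mice 1 to 5, against 3.12%, 1.78%, 2.09%, 2.50% and 2.71% in the TdLN. It was higher in 4 of 5 mice, with a mean difference of 1.01 percentage points, and did not pass (p = 0.0714; adjusted p = 0.204, exact permutation test). Within the sets the difference was 1.43 ± 1.17 in mice 1 to 3 and 0.39 ± 1.57 in mice 4 and 5 (SD).

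This difference of Trbv17 moved with small rearrangements close to large ones. Of its 45 unique productive TCRs listed over the 5 tumor 2 samples, 17 shared their last 40 bases with a rearrangement at least 50 times larger in the same sample, as did 11 of 39 in tumor 1 and 2 of 396 in the TdLN. No rearrangement of the other 5 genes was of this kind in any tissue. Their productive rearrangements did not exceed 65 templates, so one of the same gene could hardly meet the 50-fold limit. This does not set Trbv17 apart. Without such small rearrangements the difference of Trbv17 between tumor 2 and TdLN was -0.0054 percentage points (adjusted p = 1, exact permutation test). Whether such small rearrangements are sequencing variants of the large ones was not tested. Over all V genes they were 137 of 1421 unique TCRs in tumor 1, 118 of 1490 in tumor 2 and 22 of 15703 in the TdLN.

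Trbv26 had 0.906%, 1.93%, 1.55%, 0% and 2.53% of the unique TCRs of tumor 2 in mice 1 to 5, and 2.75%, 2.09%, 2.09%, 2.12% and 2.31% in the TdLN. It was lower in 3 mice and higher in mouse 5, and the 0 of mouse 4 allowed up to 6%, so that mouse has no direction. The mean difference was -0.89 percentage points (adjusted p = 0.218, exact permutation test). Trbv20 (2.19% ± 1.46) and Trbv24 (1.39% ± 0.859) in tumor 2 differed from the TdLN by -0.15 and 0.28 percentage points (adjusted p = 0.952 and 0.692, exact permutation tests; SD, n = 5). For Trbv20 this difference was -0.78 ± 1.22 in mice 1 to 3 and 0.79 ± 1.88 in mice 4 and 5 (SD). In tumor 2 none of 20 V genes was called (0%), 6 had an unadjusted p under 0.05, and limma called 0. Between tumor 1 and tumor 2 the 4 tested members had adjusted p from 0.600 to 0.905, again with 0 of 20 V genes called (0%; 2 with an unadjusted p under 0.05, 0 by limma).

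Trbv23 and Trbv30 were too rare to be tested. In tumor 1, productive TCRs of Trbv23 were found only in mouse 5, where there were 5 (1.49%), and mice 1 to 4 were at 0, with 1 out-of-frame rearrangement in mouse 3. A share of 0 there allowed up to 0.820% to 1.65% of the unique TCRs of a tumor 1 sample, so its level in the TdLN, 0.253%, was not detectable at this depth. Trbv30 had 1 unique productive TCR in tumor 1 of mouse 1 and of mouse 2, and 0 in the others. In tumor 2, Trbv23 had 6 in all and Trbv30 also 6.

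Templates estimate how many cells carry a rearrangement. By this measure Trbv26 held 1.51%, 1.57%, 1.83%, 2.30% and 2.22% of the productive templates of the TdLN of mice 1 to 5, and 0.163%, 0.333%, 0.629%, 1.508% and 0.889% of those of tumor 1. It was lower in tumor 1 in 5 of 5 mice; the groups were separate, although the lowest TdLN (mouse 1, 57 of 3779 templates, 95% interval 1.17% to 1.95%) and the highest tumor 1 (mouse 4, 80 of 5305, 1.21% to 1.87%) were within counting error of each other. The mean fell by 1.18 percentage points, from 1.89% ± 0.365 to 0.704% ± 0.528 (SD, n = 5; exact permutation p = 0.00794, adjusted p = 0.0377 over 19 V genes). By set the difference was -1.26 ± 0.0767 (mice 1 to 3) and -1.06 ± 0.379 (mice 4 and 5; SD). In all, 4 of 19 V genes (21.1%) passed this test. The call did not hold in several settings. With shared rearrangements kept only in the mouse with most templates the adjusted p was 0.0503 (exact permutation test), limma gave 0.0729, and without rearrangements listed in another mouse the difference was 0.20 percentage points (adjusted p = 0.952, exact permutation test). That removal takes 70.4% of all tumor 1 templates but 23% of those of Trbv26, so it changes the total as well. The total behind the call itself also holds large clones of other genes, as 1 Trbv12-1 rearrangement with 62.3% in tumor 1 of mouse 3. By unique TCRs Trbv26 was not called in tumor 1 (adjusted p = 0.823, exact permutation test). The part of the total in either result was not tested.

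Trbv20 was lower in templates in tumor 1 as well, at 0.0489%, 1.74%, 0.176%, 0.565% and 0.861% in mice 1 to 5 against 1.03%, 2.52%, 2.69%, 3.003% and 2.68% in the TdLN. All 5 mice had less in tumor 1, and only tumor 1 of mouse 2 reached above the lowest TdLN. The difference of -1.71 percentage points just missed the threshold (means of 0.678% ± 0.674 in tumor 1 and 2.39% ± 0.776 in the TdLN, SD, n = 5; p = 0.0159 by the exact permutation test, adjusted p = 0.0503), and limma called it (adjusted p = 0.0414). By set it was -1.43 ± 0.947 in mice 1 to 3 and -2.13 ± 0.436 in mice 4 and 5 (SD). In tumor 2 the share of Trbv20 was 2.18% ± 2.11 and differed from the TdLN by -0.21 percentage points (adjusted p = 0.905, exact permutation test); mouse 5 alone, at 5.71%, lay above its TdLN. By set this difference was -1.19 ± 0.605 in mice 1 to 3 and 1.27 ± 2.48 in mice 4 and 5 (SD).

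Trbv17 varied most. It held 4.37%, 2.98%, 1.85%, 2.41% and 2.92% of the productive templates of the TdLN of mice 1 to 5. In tumor 1 it held 0.505%, 24.9%, 0.654%, 9.33% and 1.083%, and in tumor 2 2.94%, 21.4%, 9.73%, 15.5% and 4.25%. The high values were those of mice 2 and 4 in tumor 1 and of mice 2, 3 and 4 in tumor 2, while the other tumor 1 samples were under every TdLN. Tumor 1 averaged 7.29% ± 10.5 and the TdLN 2.91% ± 0.935 (SD, n = 5), a difference of 4.38 percentage points (adjusted p = 0.989, exact permutation test, higher in 2 of 5 mice). Tumor 2 averaged 10.8% ± 7.76, a difference of 7.87 (adjusted p = 0.113, exact permutation test, higher in 4 of 5 mice), which limma called (adjusted p = 0.0341) except with a pseudocount of 0.1 (adjusted p = 0.0609). Without rearrangements listed in another mouse these differences were -0.71 and 0.90 percentage points (adjusted p = 0.708 and 0.734, exact permutation tests).

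Trbv26 in tumor 2 was at 0.101%, 0.416%, 0.130%, 0% and 0.967% in mice 1 to 5, below every TdLN. The difference of -1.56 percentage points (0.323% ± 0.392 against 1.89% ± 0.365, SD, n = 5) had an exact permutation p of 0.00794, the smallest that 5 against 5 samples allow, and an adjusted p of 0.0754. limma called it (adjusted p = 0.0139), and without rearrangements listed in another mouse the difference was -0.76 (adjusted p = 0.377, exact permutation test), with 79.3% of all tumor 2 templates but 6.98% of those of Trbv26 removed. None of the 19 V genes passed the permutation test in tumor 2 (0%), although 8 had an unadjusted p under 0.05 and limma called 7. By set the Trbv26 difference was -1.42 ± 0.273 (mice 1 to 3) and -1.78 ± 0.743 (mice 4 and 5; SD).

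The rarer members were lower in tumor templates too, without a test. Trbv24 held 0.854% ± 0.261 of the TdLN templates. Its shares were 0.302% ± 0.474 in tumor 1 and 0.402% ± 0.391 in tumor 2 (SD, n = 5 for each tissue). It was lower in tumor 1 in 4 of 5 mice. In tumor 2 it was lower in mice 1, 2 and 5 and higher in mouse 3. Mouse 4 had 1 of 238 templates there (0.420%, Wilson interval 0.0742% to 2.34%). Its TdLN share of 1.12% lies within this interval, so that mouse has no direction. Trbv30 held 0.293% ± 0.0572, 0.0113% ± 0.0157 and 0.0785% ± 0.0884 and was lower in 5 of 5 mice in tumor 1 and in the other 4 mice in tumor 2, where the 0 of mouse 4 (238 templates) allowed up to 1.26%. Trbv23 held 0.155% ± 0.0603, 0.05% ± 0.112 and 0.0461% ± 0.0605, lower in 4 of 5 in tumor 1 and in the same other 4 mice in tumor 2. Without Trbv17, the members together held 5.57% ± 1.37 of the TdLN templates, 1.75% ± 1.17 of those of tumor 1 and 3.03% ± 2.48 of those of tumor 2.

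**Figure D4:**
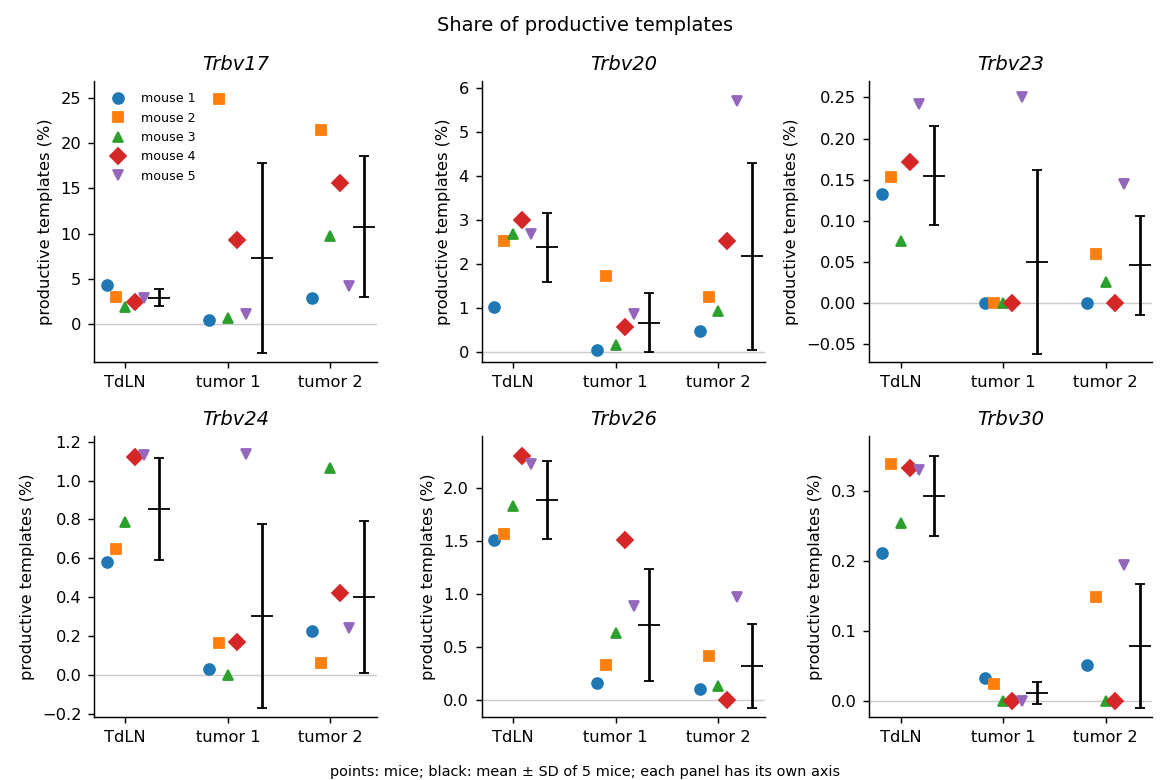
Share of productive templates (%, y axis, one scale per panel) of each V gene by tissue (x axis), with a point per mouse and the mean ± SD of 5 mice in black. Trbv17 reaches 24.9% and 21.4% in tumors 1 and 2 of mouse 2, while all tumor values of Trbv26 lie below the TdLN minimum of 1.51%, the highest, in tumor 1 of mouse 4, by less than counting error.

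The high Trbv17 values came from a few rearrangements. By the rule, the productive Trbv17 rearrangement with most templates in tumor 1 was one joined to Trbj2-7. It had 1032 templates in tumor 1 of mouse 2 (24.6% of all productive templates), 707 in tumor 2 (21.0%) and 54 in the TdLN (1.66%) of the same mouse, and 85 in tumor 2 of mouse 1 (2.14%), and was not listed elsewhere. It made up 98.8% of the Trbv17 templates of tumor 1 of mouse 2. A Trbj2-4 rearrangement, chosen after its values were seen, had 480 templates in tumor 1 of mouse 4 (9.05%), 36 in tumor 2 of mouse 4 (15.1%) and 21 in tumor 1 of mouse 5 (0.583%). Another, joined to Trbj1-2 and chosen in the same way, had 351 templates in tumor 2 of mouse 3 (9.11%), 7 in tumor 2 of mouse 1 and 2 in tumor 2 of mouse 2. All 3 had a CDR3 of 39 bases. They are shown because the template share of Trbv17 rests on them, with the CDR3 in capitals from its cysteine codon to the end of the read.
Trbv17 with Trbj2-7, mouse 2: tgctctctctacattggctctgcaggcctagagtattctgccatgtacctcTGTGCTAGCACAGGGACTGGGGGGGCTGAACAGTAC
Trbv17 with Trbj2-4, mouse 4: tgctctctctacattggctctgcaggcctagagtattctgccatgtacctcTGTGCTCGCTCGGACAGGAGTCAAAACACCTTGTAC
Trbv17 with Trbj1-2, mouse 3: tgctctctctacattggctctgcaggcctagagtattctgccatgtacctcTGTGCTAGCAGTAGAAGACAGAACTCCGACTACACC

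The lead rearrangements of the other members were far smaller. That of Trbv20 (Trbj2-7) had 65 templates in tumor 1, 24 in tumor 2 and 22 in the TdLN of mouse 2, and 15 in tumor 2 of mouse 1. That of Trbv26 (Trbj2-7) had 44 templates in tumor 1 of mouse 4 and was listed in no other sample. That of Trbv24, shown above with its stop codon, had 31 templates in tumor 1 of mouse 5, and 12 and 1 in the TdLN and tumor 2 of this mouse. Those of Trbv23 (Trbj1-1, 4 templates in tumor 1 of mouse 5) and Trbv30 (Trbj2-7, 2 templates in tumor 1 of mouse 1) were the smallest.
Trbv20 with Trbj2-7, mouse 2: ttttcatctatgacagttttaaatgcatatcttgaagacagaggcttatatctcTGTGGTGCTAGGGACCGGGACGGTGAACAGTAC
Trbv26 with Trbj2-7, mouse 4: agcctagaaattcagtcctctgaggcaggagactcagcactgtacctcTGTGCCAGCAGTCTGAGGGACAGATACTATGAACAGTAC

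The largest rearrangement of any member was not productive. An out-of-frame joint of Trbv20 to Trbj1-2 had 1807 templates in tumor 1 of mouse 3, which was 26.4% of all templates of that sample and 76.6% of its out-of-frame templates. It had 95 templates in the TdLN and 5 in tumor 2 of the same mouse and was listed in no other mouse. The largest productive rearrangement of tumor 1 of mouse 3, of Trbv12-1, had 2476 templates there; the TdLN had 106 of it and tumor 2 had 118. The ratio of the Trbv20 joint to it was 0.730 in tumor 1, 0.896 in the node and 0.0424 in tumor 2. The Trbv12-1 rearrangement was also listed in tumor 1 of mouse 4 (31 templates) and in tumor 2 of mice 1 (38) and 2 (25), where the Trbv20 joint was not. Trbv20 made up 77.4% of the out-of-frame templates of tumor 1 of mouse 3, and 0.114% to 2.72% in the other tumor 1 samples. No shares of productive TCRs depend on it. Capitals mark the part of the CDR3 inside the read, as before.
Trbv20 with Trbj1-2, out of frame, mouse 3: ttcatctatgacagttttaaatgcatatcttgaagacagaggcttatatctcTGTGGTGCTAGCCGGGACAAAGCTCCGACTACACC

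Clone size, the mean number of templates per unique productive TCR of a gene, was larger in tumor 1 for most V genes. Of 19 V genes, 13 (68.4%) passed the test on the log2 scale, Trbv17 and Trbv26 among them. Trbv17 averaged 3.93, 3.34, 2.70, 1.47 and 1.72 templates per TCR in the TdLN of mice 1 to 5 and 7.75, 95, 6.5, 41.2 and 4.88 in tumor 1. The log2 means were 1.30 ± 0.611 and 3.98 ± 1.88 (SD, n = 5), a difference of 2.68, higher in 5 of 5 mice (exact permutation p = 0.00794, adjusted p = 0.0215; 0.0464 with shared rearrangements kept in 1 mouse). By set it was 2.36 ± 2.14 (mice 1 to 3) and 3.16 ± 2.34 (mice 4 and 5; SD). Leaving out the largest rearrangement of the gene in each sample turned it to -0.24 (adjusted p = 0.4995), and the median templates per TCR differed by 0.26 on the log2 scale (adjusted p = 0.807, exact permutation tests).

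Trbv26 averaged 1.54, 1.5, 2.67, 1.66 and 1.53 templates per TCR in the TdLN and 10, 4.67, 4.17, 11.4 and 3.20 in tumor 1 of mice 1 to 5. No tumor 1 value reached down to a TdLN value. Its log2 difference was 1.77 (means of 2.56 ± 0.812 in tumor 1 and 0.79 ± 0.352 in the TdLN, SD, n = 5; adjusted p = 0.0215, exact permutation test), or 1.66 ± 1.03 (mice 1 to 3) and 1.92 ± 1.21 (mice 4 and 5; SD). Without the largest rearrangement it was 1.19 (adjusted p = 0.0754), and by median templates 1.38 (adjusted p = 0.181, exact permutation tests). The number of Trbv26 rearrangements in tumor 1 was small, from 1 to 10 per sample. Trbv20 differed by 0.84 (1.86 ± 0.943 against 1.03 ± 0.445, SD; adjusted p = 0.0798, exact permutation test, higher in 4 of 5 mice). Trbv24, with productive rearrangements in 4 of 5 tumor 1 samples, was larger in each of these and was not tested.

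**Figure D5:**
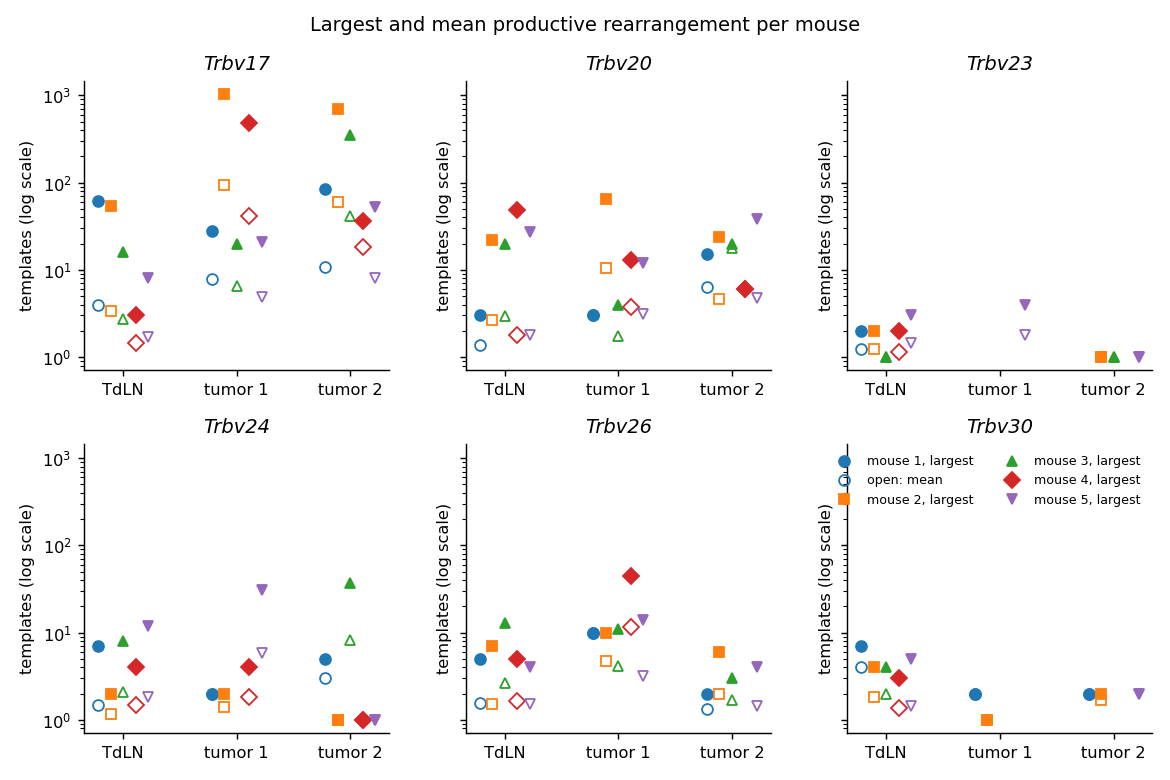
Templates (log scale, y axis) of the largest (filled) and the mean (open) productive rearrangement of each V gene per sample, by tissue (x axis) and mouse; samples without a productive rearrangement of the gene have no point. Trbv17 has rearrangements of 1032, 707, 480 and 351 templates in the tumors, while no productive rearrangement of the other members exceeds 65.

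By unique TCRs, sharing between tumor 1 and the TdLN of the same mouse could not be told apart from that of other V genes at these counts. For Trbv17, 9 of 39 unique TCRs found in tumor 1 were listed in the own TdLN too (23.1%, 95% Wilson interval 12.6% to 38.3%), 8 of 30 for Trbv20 (26.7%, 14.2% to 44.4%), 4 of 18 for Trbv24 (22.2%, 9.001% to 45.2%) and 8 of 27 for Trbv26 (29.6%, 15.9% to 48.5%). The other V genes had 397 of 1300 (30.5%, 28.1% to 33.1%), which lies within each of these wide intervals. Over all V genes, 11.5% to 49.5% of the unique TCRs of tumor 1 were in the own TdLN, depending on the mouse. It was 35.6% to 49.5% in mice 1 to 3, and 11.5% and 23.5% in mice 4 and 5. The intervals do not cover this spread. In tumor 2, 2 of 45 Trbv17 rearrangements (4.44%, 1.23% to 14.8%) and 3 of 27 of Trbv26 (11.1%, 3.85% to 28.1%) were in the own TdLN, against 197 of 1350 (14.6%, 12.8% to 16.6%) for the other V genes. The 39 and 45 Trbv17 TCRs of tumors 1 and 2 include 11 and 17 small rearrangements close to a larger one, as described above. By templates, 66.8% of the Trbv17 templates of tumor 1 and 32.9% of those of Trbv26 belonged to TCRs that were also in the TdLN, against 73.7% for the other V genes. The Trbv17 value rested on mouse 2: without it, 61 of 591 templates (10.3%) were shared, and without mouse 4 the value was 95.8%. For Trbv26, leaving out 1 mouse gave 27.2% to 43.2%.

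Rearrangements with the same nucleotides in several mice were few. Of the distinct productive rearrangements, 8 of 457 for Trbv17, 8 of 422 for Trbv20, 2 of 195 for Trbv24 and 3 of 390 for Trbv26 were listed in at least 2 mice, between 0.769% and 1.90%, and 340 of 15881 (2.14%) for the other V genes. The 8 shared Trbv20 rearrangements included 4 with no N base, among them one with Trbj1-5 that had 48 templates in the TdLN of mouse 4 and 38 in tumor 2 of mouse 5. These are the samples of different mice that had 29 unique TCRs in common, 4 of them of members, and the part of that overlap in the sharing of this joint was not tested. Shared Trbv20 rearrangements averaged 1.5 N bases and unshared ones 2.97. The averages were 2.25 and 3.50 for Trbv17, 2.81 and 3.54 for the other V genes, and in the opposite order for Trbv24 (5.5 and 3.84) and Trbv26 (4.33 and 3.16). The Trbv20 and Trbj1-5 joint is shown as an example of those without an N base, chosen after its values were seen. Capitals mark the part of the CDR3 inside the read.
Trbv20 with Trbj1-5, mice 4 and 5: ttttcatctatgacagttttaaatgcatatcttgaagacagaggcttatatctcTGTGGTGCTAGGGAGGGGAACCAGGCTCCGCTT

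Likeness of each gene to V genes outside the list was measured by Spearman's rho of the share of unique productive TCRs over the 15 samples, which include 3 tissues of each mouse and differ in depth. Among 16 V genes above a mean share of 1%, the one most like Trbv17 was Trbv19 (rho = 0.704), and the one most like Trbv26 was Trbv12-2 (rho = 0.807). Trbv12-2 was also the most alike for Trbv20 (0.571) and Trbv23 (0.559), Trbv19 for Trbv24 (0.382) and Trbv4 for Trbv30 (0.498). These values are a description.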

How the data were processed

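The immunoSEQ provider amplified TCR β rearrangements from genomic DNA, corrected reads, named the V and J gene of each and called its frame. Software versions are not given in the sources used here. The deposited counts are template estimates per 87-base rearrangement and were used without normalization; per the file headers the authors also deposited a fraction of each sample's total, and positions and lengths of the V, D and J parts, of which the fraction was not used. Per the labels the build is mm10 (GRCm38). The 16 rearrangements without a V gene were left out, and they name pairs of genes that are no members. Samples were grouped by title.

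Shares of unique productive TCRs, of templates and of out-of-frame rearrangements, the productive percentage and log2 mean templates were compared between groups of 5 with two-sided exact permutation tests of means. Benjamini-Hochberg adjustment covered all V genes whose mean share over both groups reached 1% (for productive percentage, at least 5 rearrangements per sample; for clone size, productive TCRs in every sample). Adjusted p under 0.05 was called. limma 3.58.1 (R 4.3.3) on log2(share + 0.5), on the productive percentage and on log2 mean templates was the main alternative, and its differences are on those scales. The code was tested on simulated data.

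Samples were assigned to mice by the numbers of the titles. Tumor 1 had 11.5% to 49.5% of its unique TCRs in the TdLN of its own number and at most 4.76% in any other TdLN. For tumor 2 the values were 1.55% to 26.0% and at most 18.1%, so these ranges overlap. Tumor 2 of mouse 3 had 1.55% in the TdLN of its own number and 1.03% in that of mouse 5. Counts of mice for tumor 2 therefore rest on the titles. The main tests did not use the pairing.

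Members, lists and rearrangements were chosen with earlier results of these data known. By rule, the named rearrangement of a gene is the productive one with most templates summed over tumor 1; other rearrangements are named as chosen afterwards. An upstream stop codon was searched in the reading frame of the CDR3. Reference sequences are from RefSeq GRCm38.p6 and coordinates from GENCODE M21; all 35 V gene names matched an annotated gene. Alternatives were each mouse left out, paired tests, limma, other pseudocounts (0.1 and 1), medians, filters, at least 2 templates, distinct CDR3s, thinning to equal templates (100 draws), removal of the largest clone, and, added after seeing the data, removal of rearrangements with upstream stops or shared between mice. Python 3.11.15 with numpy, pandas and scipy was used.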

Additional observations from a re-analysis of the deposited data

Results flagged for a closer look

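Over the 36 sets of 5 values tested (6 V genes, 3 tissues, shares of unique TCRs and of templates), 5 values stood far from the other 4 by Dixon's test. For continuous values chance flags about 1 in 20 sets, a rate that does not hold for sets of 0 values or a few counts. The 5 values came from 2 samples (tumor 1 of mouse 5 and the lymph node of mouse 1), and the unique and template shares of a gene are not independent. The template share of Trbv20 in the TdLN of mouse 1 was 1.03%, against 2.52% to 3.003% in the other TdLN. Trbv23 had a share of 1.49% by unique TCRs and 0.25% by templates in mouse 5's tumor 1, and was listed at 0 in the other 4 tumor 1 samples. With the other 4 at 0, any value above 0 is flagged, so the Trbv23 flags carry no information. A share of 0 allowed up to 0.820% to 1.65% of the unique TCRs of a tumor 1 sample. The template share of Trbv24 in tumor 1 of mouse 5 was 1.14%, against 0% to 0.170% in the others, and rested on 1 rearrangement of 31 templates. The unique share of Trbv30 in the TdLN of mouse 1 was 0.148% (2 rearrangements), against 0.367% to 0.388% in the others. No cause was tested for any of these.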

How the results depend on the processing

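Leaving out a mouse makes 4 against 4, where the smallest exact p is 0.0286, and the paired sign-flip test over 5 mice cannot go below 0.0625, so calls lost there say little about stability. Over all V genes, the calls on unique TCRs in tumor 1 rose from 0 to 4 with distinct CDR3s or without small rearrangements close to large ones, none in a member. The 4 calls on templates in tumor 1 became 0 without each mouse in turn (0 to 0), with the paired sign-flip test (replicate block), with medians, with no filter and with either removal of shared rearrangements. In tumor 2 limma called 7, with the mouse as a block 8, and with pseudocounts of 0.1 and 1, 5 and 7. Productive percentage calls went from 3 to 0 without each mouse (0 to 0), with either paired test (replicate block), with at least 2 templates and with shared rearrangements kept in 1 mouse. Clone size calls ranged from 0 to 12 without a mouse, 0 in the paired sign-flip test, 4 without the largest clone and 0 for medians. Calls of productive against out-of-frame shares ranged from 0 to 12 without a mouse (0 without mouse 2, 4 or 5), and were 0 in the paired sign-flip test and for medians.

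The Trbv26 template call in tumor 1 was lost under every alternative tried (adjusted p 0.0503 to 0.952) except with upstream stop codons counted as non-productive (0.0377); its difference was -1.28 to -1.14 without a mouse and 0.20 without rearrangements listed in another mouse, a removal that also shrinks the total. Uncalled differences that changed sign were these. In tumor 1 unique shares: Trbv24 -0.23 in limma with or without the replicate block, -0.62 and -0.11 with pseudocounts of 0.1 and 1, -0.0188 thinned, and -0.26 to 0.30 without a mouse; Trbv17 -0.12 by median, -0.62 with at least 2 templates, -0.22 with distinct CDR3s, -0.28 without small rearrangements and -0.23 to 0.64 without a mouse; Trbv26 0.0358 with at least 2 templates and -0.73 to 0.15 without a mouse; Trbv20 -0.53 to 0.0332 without a mouse. In tumor 2 unique shares: Trbv24 -0.21 by median and -0.00148 to 0.49 without a mouse; Trbv20 0.80 with at least 2 templates, 0.33 thinned and -0.72 to 0.25 without a mouse; Trbv17 -0.00536 without small rearrangements. Between tumors: Trbv20 0.20 by median and -0.49 to 0.19 without a mouse; Trbv24 0.46 by median, 0.0668 with distinct CDR3s and -0.64 to 0.30 without a mouse. In templates: Trbv17 in tumor 1 -0.14 in limma with a pseudocount of 0.1, -1.84 by median and -0.71 without rearrangements listed in another mouse; Trbv20 in tumor 2 0.58 without the largest clone, 0.15 without rearrangements listed in another mouse and -1.02 to 0.18 without a mouse. Productive percentage of Trbv26: -11.6 to 1.28 without a mouse. Clone size of Trbv17: -0.24 without the largest clone. The causes were not tested. Between the sets of mice, with no test, 9 differences turned against the value over all mice: in unique shares of tumor 1, Trbv20 (0.12) and Trbv26 (0.23) in mice 4 and 5 and Trbv24 (-0.42) in mice 1 to 3; in those of tumor 2, Trbv20 (0.79) in mice 4 and 5; between tumors, Trbv20 (0.19) in mice 1 to 3 and Trbv24 (0.27) in mice 4 and 5; and in mice 4 and 5 the tumor 2 templates of Trbv20 (1.27), the productive percentage of Trbv26 (6.35) and the productive against out-of-frame share of Trbv17 (0.17). Of the other alternatives for single genes, 327 kept direction and side of the threshold, 30 lost a call and 24 gained one, and 45 values of a set of mice kept direction. Libraries of 50 to 553 unique TCRs limit what tumor shares of rare genes can show.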
